A study of Mus musculus with 265 samples.

Results

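Chromatin accessibility at the genes of the pre-B cell receptor was followed in single cells of a mouse pre-B line before and 24 hours after the induction of Ikaros. The 10 genes are 3 of the surrogate light chain, Igll1, Vpreb1 and Vpreb2, and 7 of its signalling chain, Cd79a, Cd79b, Syk, Blnk, Btk, Lyn and Plcg2. A region of the deposited matrix was taken for a gene when the closest protein-coding start site to its midpoint (GENCODE vM21, mm10) was that of the gene and lay within 50 kb. This gave 42 of 20103 regions, 6 for the surrogate light chain genes and 36 for the signalling genes. Igll1 had 3 regions, Vpreb1 had 1, Vpreb2 had 2, Cd79a had 1, Cd79b had 5, Syk had 3, Blnk had 4, Btk had 1, Lyn had 7 and Plcg2 had 15. Both groups consist of ERt2-Ikaros B3 cells, a line that carries Ikaros fused to the tamoxifen-binding domain of the estrogen receptor. The 0-hour cells were not induced, and the 24-hour cells were given 20 mM of 4-hydroxytamoxifen, as the labels state it, and once more after about 12 hours. Each time-point had 2 runs of the Fluidigm C1, in which each captured cell became one ATAC-seq library, and there was no group of cells treated with vehicle or lacking the fusion. B3 is a cultured line, and neither the labels nor the methods say whether the runs came from separate cultures, so all tests measure the spread between runs.

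The pre-B cell receptor is the heavy chain paired with a surrogate light chain made of lambda5, the product of Igll1, and a VpreB protein from Vpreb1 or Vpreb2. Cd79a and Cd79b carry the tyrosine motifs that Lyn phosphorylates and that Syk docks to, the adaptor Blnk then brings Btk to phospholipase C gamma, the product of Plcg2, and calcium signalling follows. Ikaros is known to silence Igll1 as large cycling pre-B cells become small resting ones.

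The deposited matrix held 48 and 47 cells in the 0-hour runs and 60 and 72 cells in the 24-hour runs. The median cell had 2898 and 1787 counts in the 0-hour runs and 1839.5 and 1676 counts in the 24-hour runs, so 0-hour run 1 was the deepest. Values are 0, 1 or 2 per region and cell. Each of the 42 regions was detected in 5 to 30 of the 227 cells, and so every share below rests on few cells. Of 12 B lineage marker genes, 11 had a region, of which 5 (Cd79a, Cd79b, Vpreb1, Igll1 and Blnk) are themselves among the 10. The 23 regions of the other 6 marker genes summed to 1168, 1090, 1183 and 975 CPM over the 0-hour and 24-hour runs in that order, where CPM stands for counts scaled to the run total. For a single region, CPM is in addition normalized by TMM. For a gene, it is scaled to the run's counts in regions assigned to any gene, also with TMM. Values of genes and of regions are therefore not on the same scale. Of the marker genes of other cells, 2 of 6 for T cells (Cd3d and Cd28), 1 of 6 for myeloid cells (Lyz2), 1 of 5 for erythroid cells (Klf1) and 1 of 4 for mature B cells (Cr2) had a region. The T cell regions summed to 359 and 335 CPM in the 0-hour runs and to 155 and 126 CPM in the 24-hour runs, and the part of this difference in the results was not tested. The other lists gave, in the same order, 158, 54.0, 89.7 and 21.0 CPM for mature B cells, 12.2, 43.2, 0 and 7.01 CPM for myeloid cells, and 60.8, 21.6, 97.9 and 63.1 CPM for erythroid cells.

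The sequences on which the results turn are shown from mm10, forward strand, with the core that Ikaros binds (GGGAA, or TTCCC when it lies on the other strand) in capitals. The first 2 lie upstream of Igll1, the next 2 are the promoters of Vpreb2 and Vpreb1, and the last 2, from Lyn and Blnk, are introns with fitted changes of opposite sign, neither of which passed the test.
Igll1, chr16:16864098-16864223: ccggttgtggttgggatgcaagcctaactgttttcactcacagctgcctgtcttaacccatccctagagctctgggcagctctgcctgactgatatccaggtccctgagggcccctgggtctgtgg
Igll1, chr16:16865355-16865480: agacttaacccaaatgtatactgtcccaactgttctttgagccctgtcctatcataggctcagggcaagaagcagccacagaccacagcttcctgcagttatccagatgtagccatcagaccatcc
Vpreb2 promoter, chr16:17980300-17980418: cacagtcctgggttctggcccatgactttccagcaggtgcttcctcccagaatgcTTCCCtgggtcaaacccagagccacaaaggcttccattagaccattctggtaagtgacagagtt
Vpreb1 promoter, chr16:16869268-16869375: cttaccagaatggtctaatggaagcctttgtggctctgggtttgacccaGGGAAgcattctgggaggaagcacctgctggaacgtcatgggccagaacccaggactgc
Lyn intron, chr4:3683018-3683136: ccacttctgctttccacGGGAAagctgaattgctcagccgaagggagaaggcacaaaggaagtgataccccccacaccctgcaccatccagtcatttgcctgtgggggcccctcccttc
Blnk intron, chr19:40963070-40963271: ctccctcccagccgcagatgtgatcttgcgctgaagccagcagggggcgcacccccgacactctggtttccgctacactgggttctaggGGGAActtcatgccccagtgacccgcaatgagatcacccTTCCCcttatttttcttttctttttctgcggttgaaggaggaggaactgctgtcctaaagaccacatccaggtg

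The first comparison set surrogate light chain regions against signalling regions. A surrogate light chain region had signal in 15.3% and 7.80% of the cells of the 0-hour runs on average, and in 3.06% and 2.78% of the cells of the 24-hour runs. A signalling region had signal in 10.8% and 6.26% of cells at 0 hours and in 5.65% and 3.32% at 24 hours. The means were 11.5% ± 5.29 and 2.92% ± 0.196 for the surrogate light chain, a ratio of 3.96, and 8.51% ± 3.18 and 4.48% ± 1.65 for signalling, a ratio of 1.90 (SD, n = 2 runs each). Over all 20103 regions the 4 runs gave 11.04%, 6.50%, 6.68% and 6.35%, a ratio of 1.35. In both 0-hour runs the surrogate light chain regions thus lay above the signalling regions, by a factor of 1.42 and 1.25, and in both 24-hour runs they lay below them, at 0.541 and 0.837. In CPM per 100 bp of region, scaled to run totals, surrogate light chain regions had 55.0 and 44.8 at 0 hours and 16.4 and 18.5 at 24 hours, and signalling regions had 35.6, 37.1, 31.0 and 20.1.

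Because 0-hour run 1 was deeper, the shares were also computed at 837 counts per cell, a depth reached by 204 cells. The expected share of cells with signal was then 5.18% and 4.07% against 1.49% and 1.97% for a surrogate light chain region, a ratio of 2.67 in place of 3.96. For a signalling region it was 3.48% and 3.17% against 3.20% and 1.85%, so that 24-hour run 1 lay within the range of the 0-hour runs. All regions gave 3.70%, 3.48%, 3.55% and 3.44%. After thinning, the surrogate light chain regions were at 1.07 times the signalling regions in 24-hour run 2, the only run in which the order changed. These shares are means over the regions of chosen genes and carry no test.

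**Figure D1:**
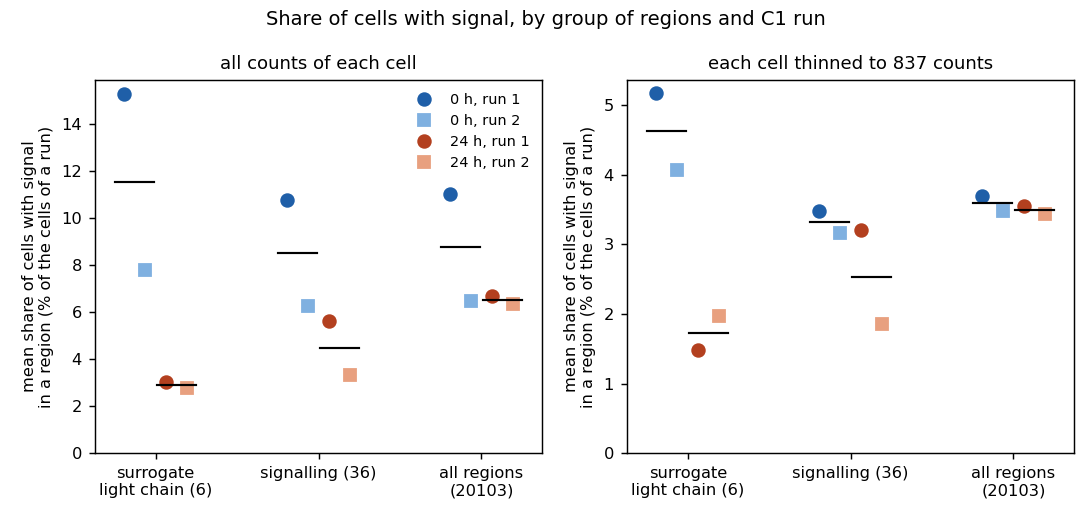
Mean share of cells with signal in a region, in % of the cells of a C1 run, for surrogate light chain, signalling and all regions; points are runs, bars are means of 2 runs, and the y axes of the panels differ. In both panels the 24-hour runs lie below both 0-hour runs for the surrogate light chain, whereas for signalling the thinned 24-hour run 1 (3.20%) lies between the 0-hour runs (3.48% and 3.17%).

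Counted by region, the 0-hour runs both exceeded the 24-hour runs in 5 of 6 surrogate light chain regions and in 17 of 36 signalling regions, where 33.7% of all regions did. The reverse order was found in 0 and 1 of them, against 8.59% of all regions. On thinned cells the counts were 3 of 6 and 12 of 36, against 26.5% of all regions, and 0 and 4 in the reverse order, against 17.4%. The share of signalling regions was therefore near the background after thinning. The surrogate light chain region outside the 5 is the one 8958 bp downstream of the Igll1 start site, detected in 4, 1, 1 and 2 cells of the 4 runs.

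Igll1 lies on the reverse strand of chromosome 16 with its start site at 16863985. The region closest to it, 176 bp upstream between the genes, was detected in 12 of 48 and 7 of 47 cells at 0 hours and in 3 of 60 and 0 of 72 cells at 24 hours. These are 19 of 95 cells (20.0%) and 3 of 132 cells (2.27%), and the run shares did not overlap. Its signal was 121 and 94.0 CPM at 0 hours and 40.4 and 0 CPM at 24 hours. The fitted log2 change was -2.42 (SE 0.90) with an adjusted p of 0.259 from edgeR's quasi-likelihood test, so it did not pass the threshold of 0.05.

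The other region upstream of Igll1, at 1433 bp, was detected in 12 and 5 cells at 0 hours and in 1 and 5 cells at 24 hours. Its run shares of 25%, 10.6%, 1.67% and 6.94% did not overlap between the time-points, but on thinned cells they were 9.98%, 4.87%, 1.84% and 4.92%, and 24-hour run 2 lay within the range of the 0-hour runs (log2 change -1.41, SE 0.78, edgeR adjusted p = 0.473). Summed over its 3 regions, Igll1 had 347 and 215 CPM at 0 hours and 72.5 and 94.8 CPM at 24 hours, and signal in at least 1 of them was found in 22, 13, 5 and 7 cells. Lambda5 is the part of the surrogate light chain that bonds to the heavy chain, and of the 10 genes Igll1 had the smallest adjusted p (log2 change -1.76, SE 0.52, edgeR adjusted p = 0.0881). On thinned cells the summed log2 change of Igll1 was -1.13 (edgeR adjusted p = 0.785).

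The promoters of the VpreB genes were nearly the same sequence. The region 69 bp upstream of the Vpreb2 start site, on the forward strand of chromosome 16 at 17980428, aligned over 116 bases to the Vpreb1 promoter with 1 mismatch (99.1% identity), so reads of one can be placed at the other. The Vpreb1 promoter region lies 67 bp upstream of the coding transcript's start at 16869255. By gene records it was assigned to Top3b and not to Vpreb1, because the Vpreb1 record begins farther out, at 16870843, with non-coding transcripts. It is described here as a region at a member's locus assigned to another gene, and was not counted among the 42.

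The Vpreb2 promoter region was detected in 7 and 3 cells of the 0-hour runs and in 0 and 0 cells of the 24-hour runs. The 10 of 95 cells at 0 hours are 10.5%, and 0 of 132 cells allows a share of up to 2.27% at 24 hours (3 cells of all 132), so the share was at least 4.63-fold lower, with the 0-hour share taken as measured. Its signal was 54.6 and 62.7 CPM at 0 hours. With the runs of a time-point joined and no TMM, it was 58.4 CPM at 0 hours, at least 5.16-fold above the 11.3 CPM to which 3 counts at 24 hours correspond. The edgeR adjusted p was 0.184, and the fitted log2 change of -5.95 (SE 1.84) depends on the prior count. The Vpreb1 promoter region was detected in 7 and 9 cells at 0 hours and in 2 and 1 cells at 24 hours. Its signal was 54.6 and 136 CPM against 32.3 and 7.33 CPM (log2 change -2.18, SE 0.94, edgeR adjusted p = 0.319).

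Taken as 1 feature, a choice made after the values were seen, the pair of VpreB promoters had signal in 12 of 48, 10 of 47, 2 of 60 and 1 of 72 cells. The shares were 25% and 21.3% at 0 hours and 3.33% and 1.39% at 24 hours, without overlap. Together these were 22 of 95 cells (23.2%, exact Clopper-Pearson 95% interval 15.1% to 32.9%) and 3 of 132 cells (2.27%, interval 0.471% to 6.50%), where only counting error is covered. After thinning the pair had signal in 10.6% and 12.2% of cells at 0 hours and in 3.35% and 0.674% at 24 hours. In a fit of all regions with the pair summed, the log2 change was -2.90 (SE 0.80, edgeR adjusted p = 0.140).

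The region at the outer Vpreb1 start, chr16:16870726-16870894, also overlaps an exon and UTR of Top3b, which encodes a DNA topoisomerase. It was detected in 4, 4, 4 and 5 cells of the 4 runs, or 8.33%, 8.51%, 6.67% and 6.94%, and the thinned shares of the time-points overlapped. Its log2 change was -0.05 (SE 0.82, edgeR adjusted p = 0.991), and no difference was detected. When regions were assigned by the starts of all transcripts, the Vpreb1 promoter took the place of this region, and the mean share of the 6 surrogate light chain regions was 16.3%, 9.57%, 2.50% and 1.85%, a ratio of 5.95. The remaining Vpreb2 region, 10790 bp upstream, was detected in 5, 2, 2 and 0 cells (log2 change -2.003, SE 1.44, edgeR adjusted p = 0.624).

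**Figure D2:**
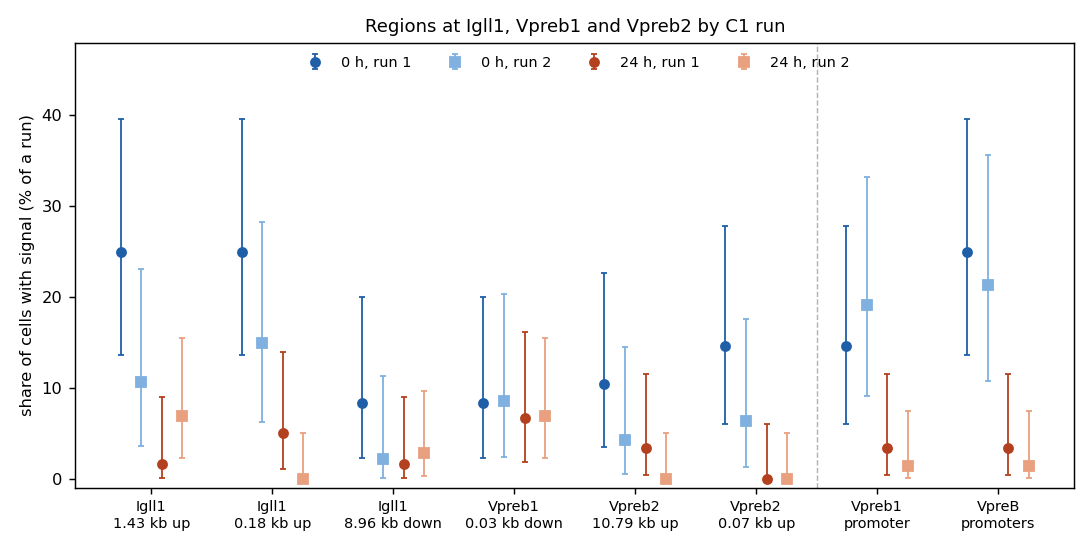
Share of cells with signal, in % of the cells of a C1 run, at each region of Igll1, Vpreb1 and Vpreb2; bars are exact 95% binomial intervals, and right of the dashed line are the Vpreb1 promoter, assigned to Top3b by gene records, and the VpreB promoters as 1 feature. The 0-hour shares of the joined promoters (25% and 21.3%) lie above the upper ends of the 24-hour intervals. The interval of 0-hour run 2 (10.7% to 35.7%) still overlaps that of 24-hour run 1 (0.406% to 11.5%). The region at the Top3b start shows 4 shares between 6.67% and 8.51%.

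Cells with signal in several surrogate light chain regions were found mostly at 0 hours. At least 2 of the 6 regions had signal in 13 of 48 and 5 of 47 cells of the 0-hour runs, and in 0 of 60 and 2 of 72 cells of the 24-hour runs. At least 1 region had signal in 54.2% and 36.2% of cells against 18.3% and 13.9%, and on thinned cells in 26.0% and 21.4% against 8.92% and 10.4%. For at least 1 of the 36 signalling regions the shares were 91.7% and 74.5% against 68.3% and 59.7%, and 70.7%, 63.5%, 69.4% and 47.8% on thinned cells. In every run the cells with surrogate light chain signal were the deeper ones, with a median of 3540.5 against 2203.5 counts for cells without it in 0-hour run 1, and of 2244.5 against 1466.5 counts in 24-hour run 2.

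Cd79a and Cd79b encode the paired signalling subunits that hold the receptor's tyrosine motifs. The single Cd79a region spans the start site on chromosome 7, its midpoint 18 bp upstream of it, and was detected in 12 and 5 cells at 0 hours and in 4 and 5 cells at 24 hours. The shares were 25%, 10.6%, 6.67% and 6.94%, without overlap, but 0-hour run 1 alone stood far above the rest. On thinned cells they were 7.09%, 7.07%, 4.44% and 2.55% (log2 change -0.70, SE 0.71, edgeR adjusted p = 0.755). At Cd79b on chromosome 11, the region 172 bp inside the gene was the one detected in most cells of all 42, with 9, 7, 9 and 5 cells. Its signal of 91.0, 136, 129 and 58.7 CPM overlapped between the time-points (log2 change -0.25, SE 0.63, edgeR adjusted p = 0.917). The other 4 Cd79b regions were detected in 8 to 20 cells with log2 changes from -0.67 to 0.94, and Cd79b summed to 333 and 228 CPM at 0 hours and 390 and 174 CPM at 24 hours. None of the Cd79b regions separated the time-points.

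Lyn, the Src family kinase that acts first on the receptor, showed regions of both directions. Its 5 regions more than 1 kb from the start site on chromosome 4 had fitted log2 changes from -3.56 to -2.02, and in all 5 the 0-hour runs both exceeded the 24-hour runs, as in 41.2% of all regions at 1 to 50 kb. The intronic region 4962 bp inside the gene was detected in 6 and 9 cells at 0 hours and in 2 and 2 cells at 24 hours, or 12.5%, 19.1%, 3.33% and 2.78%. Its signal was 48.5 and 136 CPM against 16.2 and 14.7 CPM (log2 change -2.45, SE 0.98, edgeR adjusted p = 0.298). The 2 regions upstream were detected in 6, 2, 0 and 1 cells at 30861 bp and in 7, 8, 1 and 4 cells at 28883 bp. The region over the start site itself went the other way, with 6 and 0 cells at 0 hours and 4 and 13 cells at 24 hours, and its shares of 12.5%, 0%, 6.67% and 18.1% overlapped (log2 change 1.75, SE 0.84, edgeR adjusted p = 0.380). The region 46777 bp inside Lyn, detected in 5 cells in all, has a near copy at 96.9% identity elsewhere on chromosome 4, so its counts are uncertain. The sum over Lyn was 411 and 581 CPM at 0 hours and 145 and 324 CPM at 24 hours (log2 change -1.05, SE 0.39, edgeR adjusted p = 0.214). It was -0.59 without 24-hour run 1 and -1.74 without 24-hour run 2, neither past the threshold.

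Syk, the kinase that binds the phosphorylated receptor, had a region 10541 bp upstream of its start site on chromosome 13 with signal in 9 and 6 cells at 0 hours and in 5 and 7 cells at 24 hours. Its other regions, at the start site and in the first part of the gene, were detected in 6 and 11 cells in all. Syk summed to 177 and 202 CPM at 0 hours and 145 and 150 CPM at 24 hours, a difference of -0.35 on the log2 scale (SE 0.52, edgeR adjusted p = 0.864). Btk, a Tec family kinase, had a single intronic region, 19008 bp inside the gene on the X chromosome, with signal in 3, 5, 3 and 0 cells. At 5 or fewer cells a run, the log2 change of Btk, -1.84, carried an SE of 1.11 (edgeR adjusted p = 0.532), and leaving out 24-hour run 1 or run 2 gave -5.90 or -0.78.

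Blnk, the adaptor that links Syk to its substrates, was the 1 gene of 10 with a positive change over its summed regions (log2 change 0.51, SE 0.51, edgeR adjusted p = 0.767). The sign was not kept without 0-hour run 1 (-0.10), without 24-hour run 1 (-0.20) or over regions within 10 kb (-0.48). The intronic region 31365 bp inside the gene, on chromosome 19, was detected in 3 and 5 cells at 0 hours and in 14 and 6 cells at 24 hours. Its shares of 6.25%, 10.6%, 23.3% and 8.33% overlapped, and after thinning they were 1.90% and 4.47% against 14.5% and 7.09%, without overlap. In CPM it had 36.4, 94.0, 202 and 88.0 (log2 change 1.22, SE 0.65, edgeR adjusted p = 0.458). A region 4157 bp upstream of Blnk was detected in 3, 4, 0 and 1 cells.

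Plcg2, the phospholipase at the end of the chain, had more regions than any other of the 10 genes. The region 45697 bp inside the gene on chromosome 8 was detected in 12 and 7 cells at 0 hours and in 4 and 0 cells at 24 hours, or 25%, 14.9%, 6.67% and 0%. Its signal of 109, 125, 56.6 and 0 CPM did not overlap between time-points (log2 change -2.05, SE 0.84, edgeR adjusted p = 0.306). The intronic region at 28095 bp was detected in 12, 6, 3 and 4 cells (log2 change -1.16, SE 0.73, edgeR adjusted p = 0.560). The 2 regions within 1 kb of the start site were above 0 on the log2 scale, and at the narrower one, 42 bp wide, 1 and 0 cells at 0 hours compared with 5 and 3 cells at 24 hours (log2 change 2.13, SE 1.44, edgeR adjusted p = 0.594, and from 1.46 to 5.10 with 1 run left out, the latter without 0-hour run 1). Of the 13 farther regions 11 had a change below 0, as did 62.4% of all regions at 1 to 50 kb. The region at 1051 bp, just past the cut of 1 kb, was among them. It was detected in 12, 2, 3 and 1 cells (log2 change -1.82, SE 0.92, edgeR adjusted p = 0.419). Plcg2 summed to 858 and 670 CPM at 0 hours and 580 and 269 CPM at 24 hours (log2 change -0.87, SE 0.34, edgeR adjusted p = 0.239). On thinned cells its log2 change was -0.48 (edgeR adjusted p = 0.851).

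**Figure D3:**
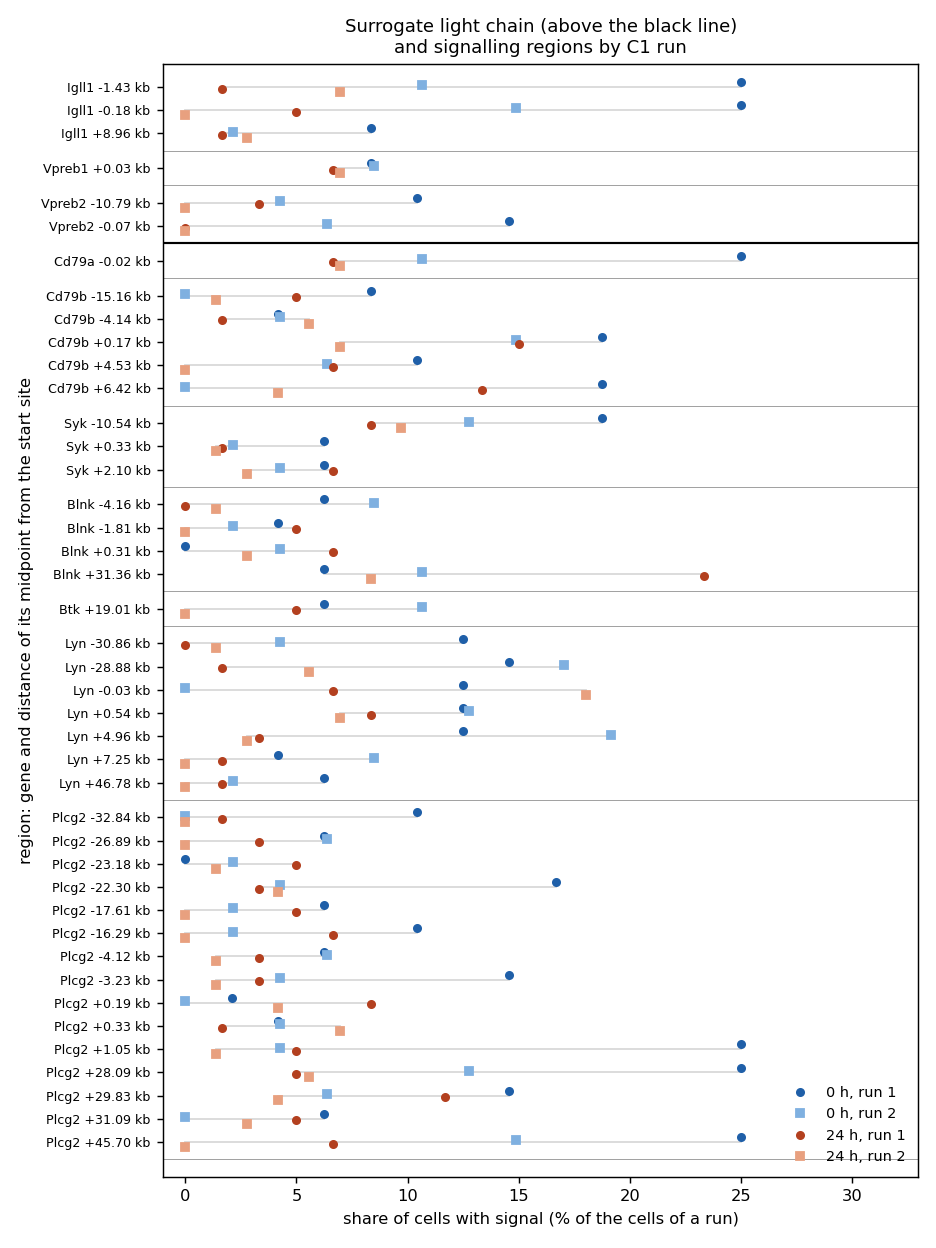
Share of cells with signal, in % of the cells of a C1 run, at each of the 42 regions, ordered by gene and by the signed distance of the region from the start site in kb. Circles are run 1 and squares run 2 of each time-point; the 0-hour points lie to the right of the 24-hour points in 5 of 6 rows above the black line and in 17 of 36 below it.

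**Figure D4:**
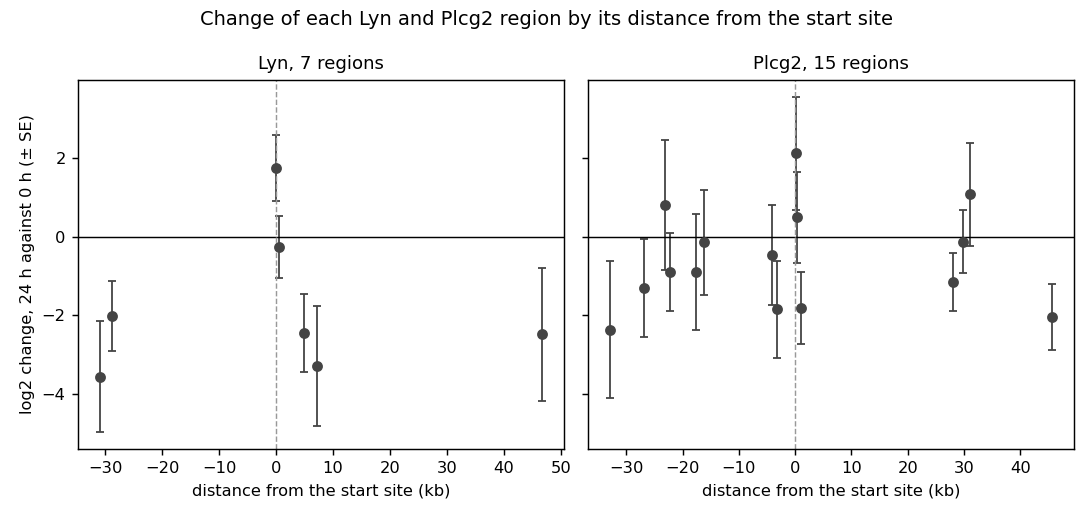
Fitted log2 change from 0 to 24 hours with its standard error for each region of Lyn and Plcg2, against the distance from the start site in kb. The 5 Lyn regions beyond 1 kb lie from -3.56 to -2.02 and the region over its start site at 1.75, and the Plcg2 regions within 1 kb lie above 0.

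Over all regions the order of the runs differed with the distance from a start site. Of the 28 signalling regions farther than 1 kb from the start site, the 0-hour runs both exceeded the 24-hour runs in 14, where 41.2% of all 7973 regions at 1 to 50 kb did, and the reverse was found in 0, against 6.28%. Of the 8 signalling regions within 1 kb it was so in 3 and reversed in 1, against 21.1% and 11.9% of all 8786 such regions. The median log2 change of all regions was -0.43 at 1 to 50 kb and 0.33 within 1 kb, and that of the signalling regions was -0.90 and 0.12. All 3 surrogate light chain regions within 1 kb had higher shares in both 0-hour runs, the one of Vpreb1 with a log2 change of -0.05, and 2 of the 3 did so on thinned cells. Their median log2 change was -2.42.

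Across all 20103 regions, edgeR's quasi-likelihood test called 3 regions lower (0.0149%) and 8 higher (0.0398%) at 24 hours, and 0 of the 42 regions. At an unadjusted p of 0.05, 2 of 6 surrogate light chain and 5 of 36 signalling regions were lower, where 7% of all regions were, and 0 and 1 were higher, where 5.11% were. These are the Vpreb2 promoter, the region 176 bp upstream of Igll1, 4 Lyn regions and the Plcg2 region at 45697 bp, and the region over the Lyn start site in the other direction. In the edgeR fit on thinned cells, which have fewer counts, 0 member regions were lower and 0 higher at that level. The share of all regions was not computed there. DESeq2 called 0 of all regions (0%). At an unadjusted p of 0.05 it counted 3 of the 42 lower, where 3.15% of all regions were, and 0 higher, where 2.25% were. The median log2 change was -1.71 over the surrogate light chain regions, also with the Vpreb2 promoter set at its bound, -0.50 over the signalling regions and -0.06 over all. Without 24-hour run 1, where the 24-hour run that is left is given the spread of the 0-hour runs, 3 of the 42 passed, and 1.70% of all regions were called lower and 2.27% higher. They were the region 176 bp upstream of Igll1 (log2 change -6.87, edgeR adjusted p = 0.00856) and the Plcg2 region at 45697 bp (-6.95, 0.00671), both against a run with 0 counts, and the Lyn start site region (2.38, 0.0325). Without 24-hour run 2 instead, the changes of these regions were -1.42, -1.02 and 0.33 (edgeR adjusted p = 0.570, 0.682 and 0.967), and the Lyn region was at 6.72 without 0-hour run 1.

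The signal of each gene was summed over its regions and tested among 9894 genes. The test called 19 genes lower (0.192%) and 16 higher (0.162%), and 0 of the 10. At an unadjusted p of 0.05, Igll1, Vpreb2, Lyn and Plcg2 were lower, where 6.23% of all genes were, and 0 of the 10 were higher, where 5.77% were. In the edgeR fit on thinned cells, which have fewer counts, 0 of the 10 were lower at that level. There 1 was higher, Blnk (log2 change 1.80, edgeR unadjusted p = 0.0265), and the share of all genes was not computed. DESeq2 gave an adjusted p to 687 of all genes and to 3 of the 10, Cd79b, Lyn and Plcg2, and called 0 of the 687 (0%). By its unadjusted p, 4 of the 10 genes were lower, where 3.31% of all genes were, and 0 were higher, where 2.35% were. Vpreb2 summed to 106 and 114 CPM at 0 hours and 18.1 and 0 CPM at 24 hours (log2 change -3.52, SE 1.06, edgeR adjusted p = 0.0948). The change was below 0 in 9 of the 10 genes, compared with 48.2% of all genes. That share is not matched for distance from a start site. Of the 42 member regions 11 lie within 1 kb, against 8786 of all 16759 regions within 50 kb. Without 24-hour run 1, Vpreb2 (log2 change -6.68, edgeR adjusted p = 0.0109) and Plcg2 (-1.52, 0.00816) passed, and 2.49% of all genes were called lower and 2.85% higher. Without 24-hour run 2 they were at -2.53 and -0.41 (edgeR adjusted p = 0.380 and 0.789).

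**Figure D5:**
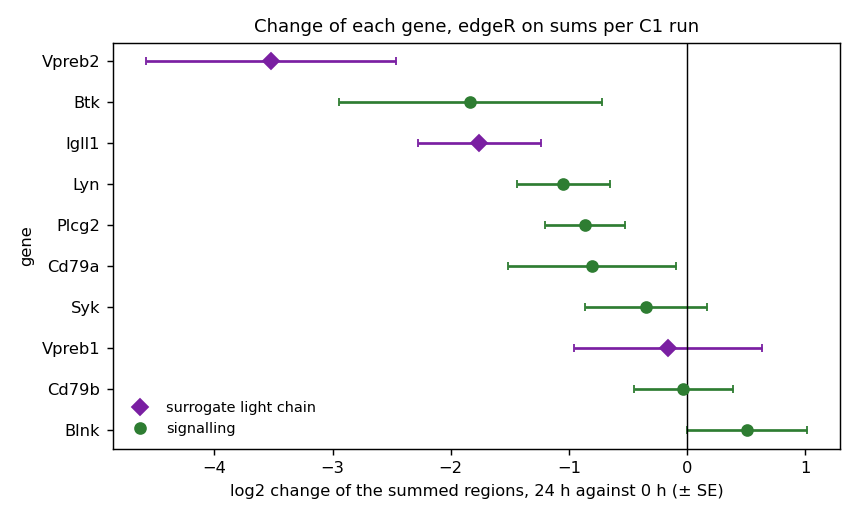
Fitted log2 change from 0 to 24 hours of each gene, summed over its regions, with its standard error (edgeR on sums of 2 runs per time-point). Vpreb2 and Igll1 lie at -3.52 and -1.76, Vpreb1 at -0.16 rests on the region at the Top3b start, and Blnk, whose sign turned without 0-hour run 1 or 24-hour run 1, lies above 0.

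The wider pathway was described by 48 other genes of pre-B and B cell receptor signalling, among them coreceptors, kinases, adaptors, calcium channels and inhibitory receptors. Of these, 42 had a region, and 0 passed in either direction, where 0.192% of all genes passed as lower and 0.162% as higher. At an unadjusted p of 0.05, 5 were lower and 1 was higher, where 6.23% and 5.77% of all genes were. The log2 changes ran from -2.06 (Akt1) to 1.12 (Malt1) with a median of -0.31, and 34 of the 42 were below 0, compared with 48.2% of all genes. Here too the share of all genes is not matched for the distance of the regions from start sites. The smallest adjusted p was 0.123. Beside the Vpreb1 promoter, 5 regions at the members' loci belonged to other genes by the closest start site, 3 of Arhgef1 near Cd79a, 1 of Rpl36a near Btk and 1 of Rps20 in the body of Lyn. The Arhgef1 region 1370 bp inside that gene was detected in 9 and 4 cells at 0 hours and in 11 and 16 cells at 24 hours, and its log2 change of 1.15 (SE 0.59) had an edgeR adjusted p of 0.426.

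Motifs were searched on both strands in a window of 150 bp centred on each region. The Ikaros core GGGAA was found in 2 of 6 surrogate light chain windows and in 20 of 36 signalling windows, compared with 39.2% of all 20103 windows. The 3 Igll1 regions held no GGGAA, whereas the VpreB promoters shown above held 1 each, on opposite strands as the promoters themselves face opposite ways. The study's own motif search, by another method, lists Igll1 among the genes that Ikaros may regulate directly. An exact search for the core in these regions does not show that a site is absent. The E protein E-box CAGGTG was found in 1 of 6 and 9 of 36 windows, against 9.39% of all. The ETS motif GAGGAA was found in 2 of 6 and 15 of 36, against 21.0%, and the EBF1 motif, half-sites TCCC and GGGA set 2 bases apart, in 0 of 6 and 2 of 36, against 2.36%. Over their whole length, the VpreB promoters held the E-box and the ETS motif 1 time each, and the Blnk intron shown above held each of these 1 time, the E-box outside its window, and the Ikaros core 2 times. In no window of the 42 did GGGAA overlap the ETS or EBF1 motif, and a motif match does not show that a factor was bound.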

How the data were processed

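Single-cell ATAC-seq libraries of 2 C1 runs per time-point were analysed, while bulk samples and RNA-seq cells were not. Per the study's methods, reads were aligned to mm10 by Bowtie2, duplicates were dropped by Picard, and cells were counted in peaks that HOMER called on the bulk samples. The authors deposited 1 matrix of counts, 20103 regions by 227 cells, without normalization, and no value is above 2. Every region in it has signal in at least 5 cells. A sparse region can thus be present through a single time-point, as the Vpreb2 promoter region is. The paper itself reports other numbers of regions and of cells per time-point. The labels list 48, 63, 75 and 73 cells for the runs. All columns of cells were used. The region coordinates were read as 1-based, which the sources used here do not state.

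The cells of a run were added up, since cells of a run are not replicates, giving totals of 164357, 92639, 122586 and 142611. Regions and genes (the sum of the regions assigned to each) were tested over the whole table with edgeR 4.0.16 in R 4.3.3 (quasi-likelihood, TMM, Benjamini-Hochberg, threshold 0.05), with DESeq2 1.42.0 as an alternative, and the test was tried on simulated data. A share is that of cells with a value above 0. Thinned shares are expected values at 837 counts per cell, the 10th percentile, leaving out 23 shallower cells. The cells kept were 48 of 48 and 46 of 47 at 0 hours, and 47 of 60 and 63 of 72 at 24 hours. Those left out were thus mostly 24-hour cells. Copies were searched with BLAST 2.17.0 at 90% identity over 80% of a region. A count of 0 was given a limit of 3 counts. Intervals are at 95% and cover counting error only. No doublet caller was run, since each capture site was inspected.

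All regions of the 10 genes were described, and other pathway genes were given as counts and a range. The members, the gene lists and the alternatives were chosen with earlier results of these data known. Same-numbered runs did not deviate together (correlation -0.02 over regions), so the fits carry no block.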

Additional observations from a re-analysis of the deposited data

How the results depend on the processing

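With all runs, the mean share of cells was lower at 24 hours for both groups under each alternative. From a difference of -8.62 percentage points for the surrogate light chain and -4.03 for signalling, it was -2.89 and -0.80 on thinned cells and -29.1 and -19.0 as the share of cells with at least 1 region. Chosen after the data were seen, the latter on thinned cells gave -14.0 and -8.54, and 2.24 for signalling without 24-hour run 2. With 1 run left out it ranged from -12.4 to -4.88 and from -6.28 to -1.78. No member region or gene passed with all runs under run totals, the number of cells as offset, DESeq2, a filter on low counts, detected or not detected values, thinned cells, or another distance or start site. Some of these fits called 0 of all features and so show nothing about the members: DESeq2, the filter, detected values and thinned cells over regions, and the number of cells, DESeq2 and the filter over genes. With 1 run left out, 0 to 3 regions and 0 to 2 genes passed, both maxima without 24-hour run 1. Fits with the replicate block called 0 member regions and 0 member genes. The block changed the calls over all features from 11 to 11 regions and from 35 to 12 genes.

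Of 20 log2 changes followed, 14 kept their direction in each alternative run, and 219 of 235 alternative values had the sign of the main fit. The sign turned for the Vpreb1 region at the Top3b start (0.21 on detected or not detected values, and from -0.32 to 0.24 with 1 run left out) and for Vpreb1 summed (0.045, and from -0.48 to 0.16). With the starts of all transcripts, by which the Vpreb1 promoter is counted, Vpreb1 summed was -2.29 in place of -0.16 (edgeR adjusted p = 0.289). It turned for the Cd79b region nearest the start site on thinned cells (0.37, and from -0.90 to 0.24 with 1 run left out) and for Cd79b summed (0.16, and from -0.72 to 0.43). The Blnk region nearest the start site ranged from -0.23 to 5.35 with 1 run left out. Blnk summed ranged from -0.20 to 1.28, and was -0.48 over regions within 10 kb, where the region at 31365 bp is not counted. The cause was not tested for the other changes of sign. For Igll1 summed, the edgeR adjusted p ranged from 0.0596 to 0.785 over the fits with all runs, and DESeq2 gave no adjusted p. Each member region rests on 5 to 30 cells and each time-point on 2 runs, and what limited the calls was not tested.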
